A study of Caenorhabditis elegans with 12 samples.

Results

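The genes described here encode 7 zinc transporters and the zinc-binding nuclear receptor of the nematode Caenorhabditis elegans. They were taken by name from the table of 24238 genes: cdf-1, cdf-2, ttm-1, sur-7, zipt-2.1, zipt-2.3, zipt-7.1 and hizr-1, which makes 8 members. All 8 were present, and all 8 passed the filter of a mean of at least 1 FPKM (fragments per kilobase of transcript, scaled to the mapped fragments of a library) over the libraries. Poly(A) RNA of whole N2 animals, the wild-type Bristol strain, made up 12 libraries, 6 of animals given tetrathiomolybdate (TM), a copper-chelating compound of molybdenum and sulfur, for 4 days, and 6 of control animals given the solvent dimethyl sulfoxide (DMSO). The comparison addressed here is how TM altered transcript levels of the genes that move zinc out of and into the cytosol. Neither the stage and number of the animals nor the dose is stated in the labels. Nothing says that libraries came from separate cultures either, and p-values therefore cover only the variation among these samples, part of which may be technical.

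Animals keep cytosolic zinc within narrow limits with a pair of transporter families that work in opposite directions. Cation diffusion facilitators, also called ZnT proteins, move zinc out of the cytosol, across the plasma membrane or into organelles, and ZIP proteins move it into the cytosol. In C. elegans the intestine stores surplus zinc in lysosome-related gut granules. HIZR-1 is the receptor that binds zinc in intestinal cells and activates genes for storage and excretion, such as cdf-2 and the metallothionein genes, when zinc is high. Transcripts of zipt-2.3 are known to rise when zinc is scarce.

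Each library held 61432401 to 67068328 counts. TM replicate 5 stood apart from the other TM libraries on the second principal component of all tested genes, at -38.6 against 9.08 to 15.8. On the same component DMSO replicates 2 and 6 lay at -21.6 and -29.6, against 1.97 to 9.94 in the other DMSO libraries. DMSO replicate 6 lay nearest to the TM libraries on the first component, at 6.46. There the other DMSO libraries lay at 40.96 to 62.8 and the TM libraries at -56.9 to -40.3. Results for the zinc genes that change without these libraries are given beside each gene. Of 120 marker genes found for 7 tissues, 0 were at zero in all libraries, as whole animals would give. In bulk RNA, fewer cells of a type and less RNA per cell cannot be told apart.

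The clearest changes were a rise of cdf-2, which fills the zinc stores of the gut, and a fall of zipt-2.3, which empties them. TM animals had 2.59 times the mean cdf-2 level of DMSO animals and 0.401 times the mean zipt-2.3 level. The exporter ttm-1 rose and the exporter cdf-1 and the importer zipt-7.1 fell, each by less than 0.3 on the log2 scale. The exporter sur-7, the importer zipt-2.1 and the sensor hizr-1 did not pass the test. Thus 2 of 8 members rose and 3 fell, by edgeR's quasi-likelihood test at an adjusted p of 0.05 over all 11535 tested genes. Of all tested genes 39.8% passed, 23.7% higher and 16% lower, which is the background against which the count stands. In 4 of the 8 genes the TM and DMSO libraries did not overlap in FPKM, against 22.5% of all tested genes. In 2 of these 4 all TM libraries were above, against 16.1% of all tested genes, and in 2 all were below, against 6.41%. Which genes separate depends on the scaling, as given below for ttm-1 and cdf-1.

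**Figure D1:**
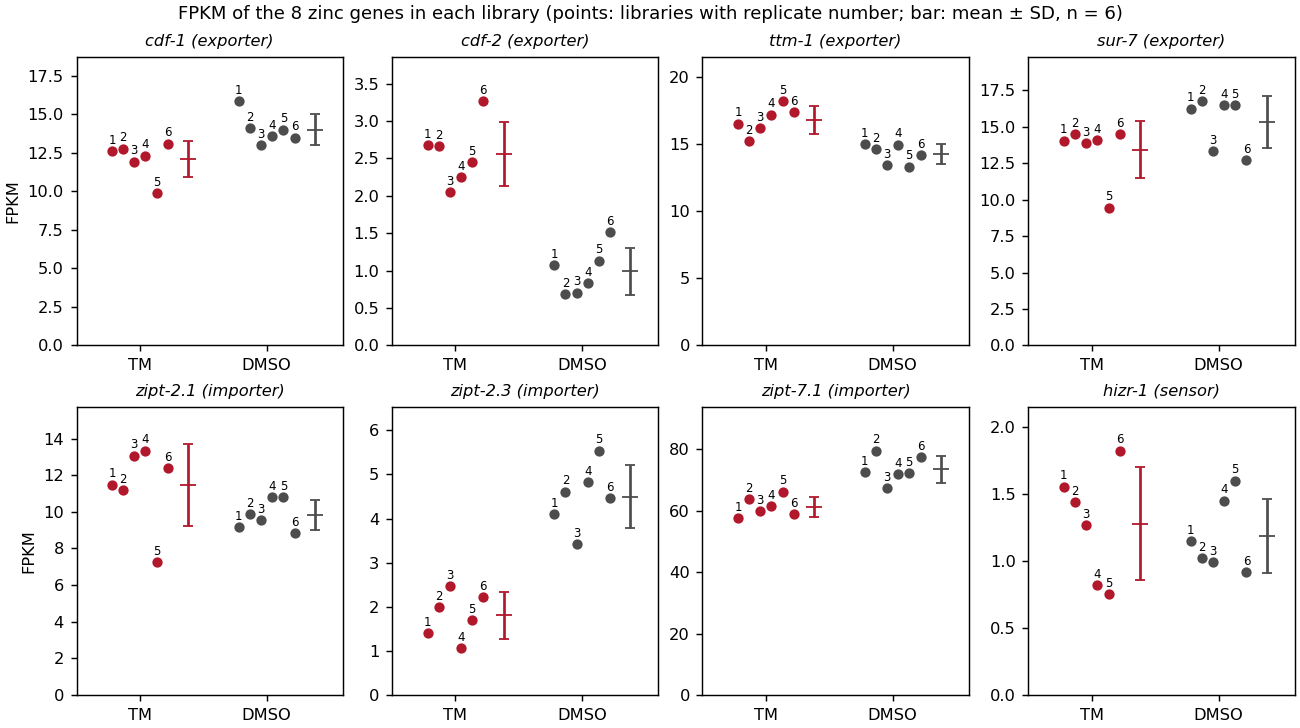
FPKM of each zinc gene (vertical axes start at 0) in the 6 TM libraries, in red, and the 6 DMSO libraries, in grey, with replicate numbers and the mean ± SD. The TM points of cdf-2 and ttm-1 all lie above the DMSO points, those of zipt-2.3 and zipt-7.1 all lie below them, and TM replicate 5 is the lowest TM library for cdf-1, sur-7, zipt-2.1 and hizr-1.

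Levels are per length, so they can be set side by side between genes. The transcript of zipt-7.1 was the most abundant, at a mean of 67.4 FPKM over the 12 libraries. Then came ttm-1 at 15.5, sur-7 at 14.4, cdf-1 at 13.04 and zipt-2.1 at 10.7 FPKM, whose ranges over the libraries overlapped from each gene to the next. The lowest were zipt-2.3 at 3.15, cdf-2 at 1.77 and hizr-1 at 1.23 FPKM, and these ranges also overlapped from each gene to the next. The least expressed genes of the set, cdf-2 and hizr-1, stood at the 11.4 and 3.95 percentiles of the mean FPKM of tested genes.

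Among the exporters, cdf-2 encodes the CDF transporter that carries zinc into gut granules. It lies on chromosome X from 12464640 to 12466917, on the minus strand. Its level ran from 2.05 through a median of 2.56 to 3.27 FPKM in TM libraries, against 0.682, 0.949 and 1.51 FPKM in DMSO libraries. Every TM library was above every DMSO library, and the highest DMSO library was replicate 6. The mean was 2.56 ± 0.424 FPKM in TM and 0.989 ± 0.317 FPKM in DMSO animals (SD, n = 6 each). The log2 change was 1.33 ± 0.21 (SE, adjusted p = 0.000157 by edgeR), with a 95% interval of 0.89 to 1.77. Of all called genes, 836 rose by more. The counts behind these levels were 60 to 306 per library. The DMSO mean lay below 1 FPKM, so cdf-2 passed the filter through its TM libraries. With no filter the log2 change was 1.32 and the adjusted p from edgeR 0.000118. With limma on log2(FPKM + 1) it was 0.85, and after quantile normalization 0.41 (adjusted p = 0.00626). Leaving out DMSO replicate 6 gave a log2 change of 1.52 and a mean of 0.884 ± 0.208 FPKM for the remaining DMSO libraries.

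DMSO replicate 6 was also the DMSO library with the highest level of sperm transcripts. The summed level of 41 sperm markers was 609 to 1123 FPKM in TM libraries, against 228 FPKM in DMSO replicate 6 and 49.9 to 91.0 FPKM in the other DMSO libraries. Of these markers 35 reached a mean of 1 FPKM over all libraries and 35 rose, beside 23.7% of all tested genes. Of the 35, 2 had a DMSO mean below 1 FPKM, spe-11 (log2 change 3.59) and ssp-16, and passed the filter through their TM libraries, which fixes in part that they rose. The sperm gene smz-1 had a log2 change of 2.87. The 11 intestinal markers found summed to 3509 to 4288 FPKM in TM libraries, against 3377 to 4068 FPKM in DMSO libraries. Of these 5 rose and 1 fell, beside 23.7% and 16% of all tested genes, and ifb-2, an intestinal intermediate filament gene (log2 change 0.57), and elt-7, a gene for an intestinal GATA factor (log2 change 0.50), had the smallest p. The part of either tissue in the rise of cdf-2 was not tested.

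The gene ttm-1 encodes a CDF protein, one form of which excretes zinc from the intestine into the gut lumen. It spans chromosome III from 12952969 to 12966995 on the minus strand, with 3 annotated transcripts, and the counts do not separate its forms. TM libraries held from 15.2 through a median of 16.9 to 18.2 FPKM of ttm-1, against 13.3, 14.4 and 14.96 FPKM in DMSO libraries. The groups did not overlap in FPKM, though the gap between them was small. In log2 CPM they overlapped, since TM replicate 2, at 4.87, lay below DMSO replicates 2 and 6, at 4.90 and 4.89. The log2 change of ttm-1 was 0.21 ± 0.069 (SE, adjusted p = 0.0275 by edgeR), with a 95% interval of 0.06 to 0.35. The call was lost without TM replicate 4 or 6 or without DMSO replicate 3 or 5, where the adjusted p from edgeR ran from 0.0513 to 0.0715.

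The gene cdf-1, on chromosome X from 6499916 to 6504613 on the minus strand, encodes a plasma membrane zinc exporter that also acts in Ras signalling of the vulva. Its level ran from 9.88 through a median of 12.4 to 13.1 FPKM in TM libraries, against 13, 13.8 and 15.8 FPKM in DMSO libraries. The groups touched in FPKM, since the highest TM library, replicate 6, lay just above the lowest DMSO library, replicate 3. In log2 CPM all TM libraries, up to 4.97, lay below all DMSO libraries, from 5.04. The mean was 12.1 ± 1.15 FPKM in TM and 13.99 ± 0.988 FPKM in DMSO animals (SD, n = 6 each). The log2 change was -0.24 ± 0.069 (SE, adjusted p = 0.0120 by edgeR). It was -0.21 without TM replicate 5, the lowest library, and -0.26 to -0.21 over all fits without a single library.

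The gene sur-7, on chromosome X from 16376595 to 16380050 on the plus strand, encodes a CDF-type protein of the endoplasmic reticulum that was found, like cdf-1, through its effect on Ras signalling. Its level ran from 9.46 through a median of 14.1 to 14.5 FPKM in TM libraries, against 12.7, 16.4 and 16.8 FPKM in DMSO libraries. The groups overlapped, with TM replicate 5 far below the rest of its group and replicates 3 and 6 the lowest in DMSO. The fit gave sur-7 a log2 change of -0.22 ± 0.098 (SE, adjusted p = 0.0845 and unadjusted p = 0.0387 by edgeR), with a 95% interval of -0.43 to -0.01. DESeq2 gave an adjusted p of 0.0498. Without TM replicate 5 the log2 change was -0.15 and the adjusted p from edgeR 0.0928. The annotated span of sur-7 shares 72 bases with a tRNA gene and 21 with a piRNA gene on its strand. It also shares 88 bases with F01G12.15, a noncoding RNA gene on the other strand.

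Among the importers, zipt-2.3 encodes a ZIP transporter of the gut granule membrane, which releases stored zinc to the cytosol. It lies on chromosome II from 13712906 to 13715879, on the minus strand. Its level ran from 1.06 through a median of 1.84 to 2.47 FPKM in TM libraries, against 3.42, 4.54 and 5.54 FPKM in DMSO libraries. The highest TM library, replicate 3, lay well under the lowest DMSO library, also replicate 3. The mean was 1.80 ± 0.523 FPKM in TM and 4.50 ± 0.709 FPKM in DMSO animals (SD, n = 6 each), from 79 to 416 counts per library. The log2 change was -1.34 ± 0.19 (SE, adjusted p = 7.69e-05 by edgeR), with a 95% interval of -1.75 to -0.94.

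Falls of this size were rare in these data. Of all tested genes, 0.243% passed with a log2 change of -1 or less, 28 genes in all, and only 8 of the fallen genes fell by more than zipt-2.3. Rises of at least 1 on the log2 scale, as for cdf-2, were found for 9.11%. Leaving out single libraries kept the log2 change of zipt-2.3 between -1.46 and -1.23. The annotated 3′ end of zipt-2.3 shares 26 bases with that of kqt-3, a potassium channel gene on the other strand. The span of zipt-2.3 also shares 61 bases with Y54G9A.11, a noncoding RNA gene on the other strand. Whether the counting used strand is not given in the sources used here. The level of kqt-3 was 2.72 ± 0.399 FPKM in TM and 2.44 ± 0.171 FPKM in DMSO animals (SD, n = 6 each; log2 change 0.12, adjusted p = 0.406 by edgeR).

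**Figure D2:**
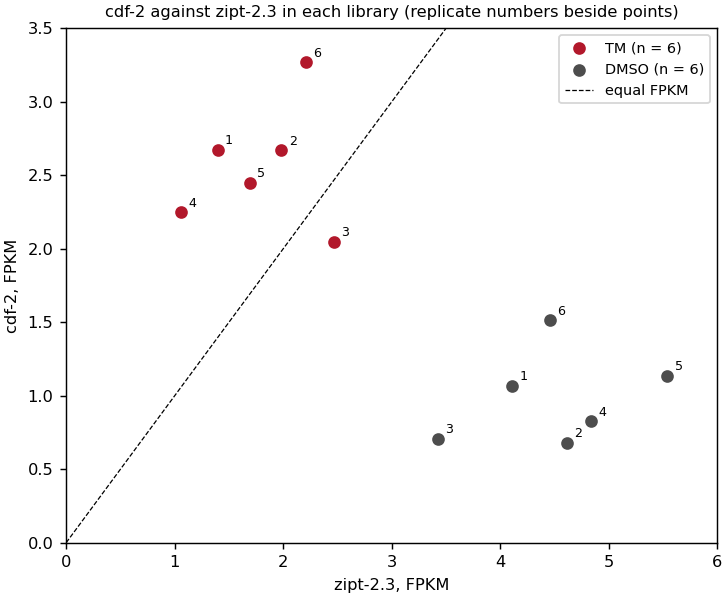
Level of cdf-2 (vertical axis, FPKM) against that of zipt-2.3 (horizontal axis, FPKM) in each of the 12 libraries, with replicate numbers and a dashed line of equal FPKM. The 6 TM libraries lie to the upper left, 5 of them above the line, and the 6 DMSO libraries lie to the lower right, all below it.

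In DMSO animals zipt-2.3 was the more abundant of this pair of granule transporter transcripts, and in TM animals cdf-2 was. The ratio of cdf-2 to zipt-2.3 FPKM ran from 0.829 in replicate 3 to 2.12 in replicate 4 among TM libraries, against 0.148 in replicate 2 to 0.339 in replicate 6 among DMSO libraries. TM replicate 3 was the TM library in which cdf-2 was lowest and zipt-2.3 highest, and it alone of the TM libraries had less cdf-2 than zipt-2.3. The ratio is a description of genes already seen to change and carries no test.

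The gene zipt-7.1 encodes a ZIP protein that releases zinc inside sperm, where zinc triggers activation, and it is expressed in the germline. It lies on chromosome IV from 17285733 to 17287454, on the minus strand. TM libraries held from 57.6 through a median of 60.8 to 66.2 FPKM of zipt-7.1, against 67.3, 72.4 and 79.5 FPKM in DMSO libraries. All TM libraries were below all DMSO libraries. The mean was 61.3 ± 3.22 FPKM in TM and 73.5 ± 4.37 FPKM in DMSO animals (SD, n = 6 each). The log2 change was -0.29 ± 0.070 (SE, adjusted p = 0.00431 by edgeR). It ran from -0.33 to -0.26 when single libraries were left out.

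The fall of zipt-7.1 went against the rise of the sperm markers and with the fall of the oocyte and germline markers. Of 20 oocyte and germline markers, 14 fell and 0 rose, beside 16% and 23.7% of all tested genes, with a median log2 change of -0.30, beside -0.01 over all tested genes. Their summed level was 9452 to 11193 FPKM in TM libraries, against 11292 to 12448 FPKM in DMSO libraries. The germline genes nos-2 (log2 change -0.52) and spn-4 (log2 change -0.46) had the smallest p in that list. The part of the germline in the fall of zipt-7.1 was not tested.

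Of 11 genes of sperm activation, the process in which ZIPT-7.1 acts, only spe-6 and swm-1 reached a mean of 1 FPKM. Both rose, beside 23.7% of all tested genes. The kinase gene spe-6 had 5.85 ± 1.02 FPKM in TM and 3.59 ± 0.600 FPKM in DMSO animals (SD, n = 6 each; log2 change 0.67, adjusted p = 0.00380 by edgeR). The gene swm-1, whose product restrains premature activation in males, had 17.4 ± 2.76 FPKM in TM and 11.9 ± 1.62 FPKM in DMSO animals (log2 change 0.51, adjusted p = 0.00517 by edgeR). The call of spe-6 was lost with limma after quantile normalization. With no filter 5 of the 9 genes below 1 FPKM rose, beside 3760 of all 24238 genes. The genes spe-29, spe-43, snf-10 and try-5 did not pass.

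The last importer, zipt-2.1, is a ZIP gene on chromosome IV from 10799654 to 10802250, on the plus strand. Levels of zipt-2.1 ran from 7.27 through a median of 11.9 to 13.3 FPKM in TM libraries, against 8.85, 9.72 and 10.8 FPKM in DMSO libraries. TM replicate 5 was the lowest of all 12 libraries, and the other 5 TM libraries were above all DMSO libraries. The fit gave zipt-2.1 a log2 change of 0.19 ± 0.11 (SE, adjusted p = 0.209 and unadjusted p = 0.124 by edgeR), with a 95% interval of -0.06 to 0.43. Without TM replicate 5 the TM mean was 12.3 ± 0.944 FPKM, the log2 change 0.28 and the adjusted p from edgeR 0.00571, so that this library decides whether zipt-2.1 is called. With limma after quantile normalization the log2 change was -0.0076.

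The sensor gene hizr-1, on chromosome X from 11318278 to 11321078 on the plus strand, did not differ beyond its spread. Its level ran from 0.749 through a median of 1.35 to 1.82 FPKM in TM libraries, against 0.914, 1.08 and 1.597 FPKM in DMSO libraries. The TM libraries spread around the DMSO libraries, with replicates 4 and 5 below all of them and replicate 6 above all of them. The log2 change was 0.08 ± 0.22 (SE, adjusted p = 0.791 by edgeR), and its 95% interval of -0.39 to 0.55 leaves changes of a moderate size in either direction undetected at 71 to 176 counts per library. Its sign turned without TM replicate 6, to -0.041, and with limma on log2(FPKM + 1) after quantile normalization, to -0.42 (adjusted p = 0.0117).

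**Figure D3:**
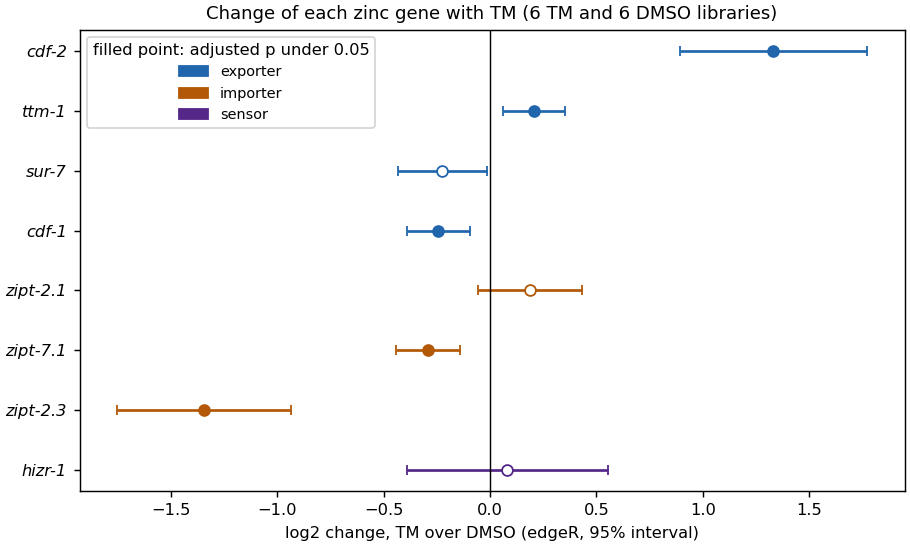
Log2 change of TM over DMSO for each zinc gene (horizontal axis) with its 95% interval from edgeR, by role in colour, with filled points for genes that passed. The points of cdf-2, at 1.33, and zipt-2.3, at -1.34, lie far to either side, and the other 6 genes lie between -0.29 and 0.21.

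By role, exporters and importers did not move as blocks. Of 4 exporters 2 rose and 1 fell, with a median log2 change of -0.01, and of 3 importers 0 rose and 2 fell, with a median of -0.29. Of all tested genes 23.7% rose and 16% fell, with a median of -0.01. Each role was also scored by its mean log2 CPM, scaled between libraries as for the test, relative to the DMSO mean. The score of the exporters was 0.16 to 0.41 in TM libraries and -0.18 to 0.17 in DMSO libraries. That of the importers was -0.65 to -0.26 in TM libraries and -0.16 to 0.10 in DMSO libraries. Each rested on its leading gene. Without cdf-2, a split chosen after the values had been seen, the exporters stood at -0.25 to -0.02 in TM libraries and -0.11 to 0.11 in DMSO libraries. Without zipt-2.3 the importers stood at -0.26 to 0.06 in TM libraries and -0.09 to 0.11 in DMSO libraries. The genes were chosen with results of these data known, so these scores carry no test.

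The other members of the same families also changed in either direction. Together with the 7 transporters above, 12 CDF and 14 ZIP genes were found, of which 24 reached a mean of 1 FPKM. Among 12 tested CDF genes 3 rose and 2 fell, with a median log2 change of -0.07. Among 12 tested ZIP genes 3 rose and 4 fell, with a median of -0.08. The 12 called of 24 stand beside 39.8% of all tested genes. No other family member changed by as much as cdf-2 or zipt-2.3 among those tested.

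Of the remaining ZIP genes, zipt-13 and zipt-2.2 rose most. The gene zipt-13 had 18.2 ± 1.66 FPKM in TM and 10.4 ± 1.44 FPKM in DMSO animals (SD, n = 6 each), a log2 change of 0.77 ± 0.10 (SE, adjusted p = 4.79e-05 by edgeR). The gene zipt-2.2, a relative by name of zipt-2.1 and zipt-2.3, had 2.52 ± 0.236 FPKM in TM and 1.42 ± 0.319 FPKM in DMSO animals, a log2 change of 0.80 ± 0.16 (SE, adjusted p = 0.00113 by edgeR). For both genes the groups did not overlap. Smaller changes were those of zipt-15 (log2 change 0.20, adjusted p = 0.0146 by edgeR) and zipt-2.4 (log2 change -0.24, adjusted p = 0.00495 by edgeR), and the last ZIP gene to pass was zipt-1 (log2 change -0.19), named after its values were seen.

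A ZIP gene below the filter, zipt-17, also named after its values were seen, had 0.759 ± 0.139 FPKM in TM and 0.105 ± 0.0925 FPKM in DMSO animals (SD, n = 6 each). Every TM library was above every DMSO library. With no filter its log2 change was 2.78 (adjusted p = 0.000951 by edgeR).

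In the CDF family, K07G5.5 had 3.603 ± 0.814 FPKM in TM and 2.33 ± 0.402 FPKM in DMSO animals (SD, n = 6 each), a log2 change of 0.60 ± 0.16 (SE, adjusted p = 0.00823 by edgeR). The gene F56C9.3 fell to 82.0 ± 5.48 FPKM in TM animals, against 93.0 ± 3.68 FPKM in DMSO animals (log2 change -0.21, adjusted p = 0.0217 by edgeR). Its call was lost without TM replicate 3 or TM replicate 4. The other 6 CDF genes outside the described set did not pass. With limma after quantile normalization the calls of K07G5.5 and zipt-2.2 were lost.

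**Figure D4:**
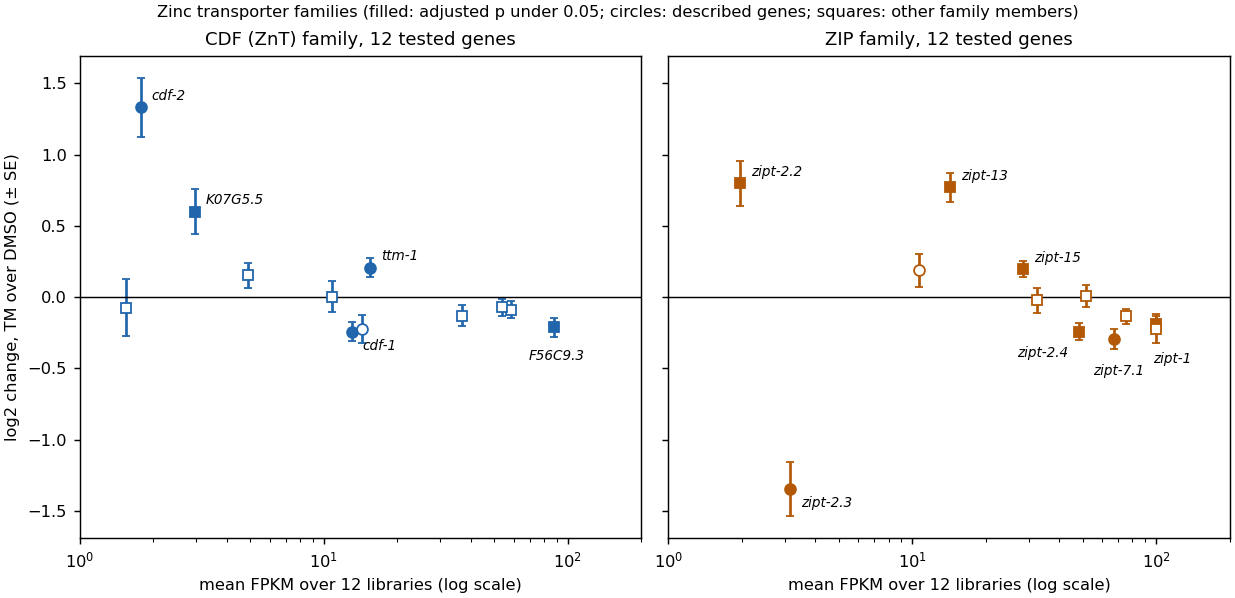
Log2 change of TM over DMSO ± SE (vertical axis) against mean FPKM over the 12 libraries (horizontal axis, log scale) for the 12 tested CDF genes, left, and the 12 tested ZIP genes, right. Filled symbols passed the test. The described genes are circles and the other family members squares. Apart from zipt-2.3 and cdf-2, the largest changes are those of zipt-2.2, zipt-13 and K07G5.5.

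Genes that act with HIZR-1 changed in part. The metallothionein gene mtl-2, a HIZR-1 target that encodes a metal-binding protein of the intestine, had 3.30 ± 0.844 FPKM in TM and 1.66 ± 0.677 FPKM in DMSO animals (SD, n = 6 each), a log2 change of 0.95 ± 0.27 (SE, adjusted p = 0.0130 by edgeR), a call lost with limma after quantile normalization (log2 change 0.30). Its relative mtl-1 had 3.21 ± 1.55 FPKM in TM and 3.02 ± 0.545 FPKM in DMSO animals, a log2 change of 0.06 ± 0.28 (SE, adjusted p = 0.884 by edgeR). The Mediator subunit gene mdt-15, a coactivator in the zinc response, had a log2 change of -0.04 ± 0.050 (SE, adjusted p = 0.520 by edgeR). The intestinal GATA factor gene elt-2 had a log2 change of -0.20 ± 0.084 (SE, adjusted p = 0.0759 by edgeR).

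Genes that build the gut granules, where CDF-2 and ZIPT-2.3 sit, changed in either direction. Of 10 such genes 1 rose and 2 fell, beside 23.7% and 16% of all tested genes, with a median log2 change of -0.08. The granule gene glo-3 had 2.88 ± 0.590 FPKM in TM and 1.83 ± 0.554 FPKM in DMSO animals (SD, n = 6 each; log2 change 0.64, adjusted p = 0.0184 by edgeR). The genes that fell were apm-3, a subunit of the AP-3 adaptor (log2 change -0.21, adjusted p = 0.0377 by edgeR), and snap-29, which encodes a membrane fusion protein (log2 change -0.17, adjusted p = 0.0257 by edgeR). The call of snap-29 was lost without TM replicate 3 or 6 or DMSO replicate 2 or 3, and that of apm-3 without TM replicate 1, 3 or 4 or DMSO replicate 1, 2, 3 or 5. Limma after quantile normalization ended the calls of glo-3 and snap-29.

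The Ras pathway, in which cdf-1 and sur-7 were found, had genes that fell and a gene that rose. Of 14 genes tested 6 fell and 1 rose, beside 16% and 23.7% of all tested genes, with a median log2 change of -0.17 beside -0.01 over all tested genes. The Raf kinase gene lin-45 had 36.7 ± 5.21 FPKM in TM and 47.1 ± 3.53 FPKM in DMSO animals (SD, n = 6 each; log2 change -0.39, adjusted p = 0.00170 by edgeR). The EGF-type ligand gene lin-3 (log2 change -0.26, adjusted p = 0.00257 by edgeR) and the Mediator gene sur-2 (log2 change -0.35, adjusted p = 0.00349 by edgeR) fell as well. The gene that rose was lin-1, for an ETS factor at the end of the pathway, at 10.4 ± 2.34 FPKM in TM and 5.98 ± 0.424 FPKM in DMSO animals (log2 change 0.77, adjusted p = 0.000618 by edgeR). Oocyte and germline markers fell in the same libraries, as given for zipt-7.1, and their part in the fall of Ras pathway genes was not tested.

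Within groups cdf-2, zipt-2.3, zipt-7.1 and hizr-1 followed different partners. After each group mean was subtracted, the log2 CPM of cdf-2 over the 12 libraries was most like that of smz-2 (Pearson's r 0.885), flp-18 (0.881) and ZC449.8 (0.873). That of zipt-2.3 was most like klf-1 (0.905), Y105E8A.1 (0.814) and skr-20 (0.807). For zipt-7.1 the closest genes were F42F12.3 (0.979), fah-1 (0.954) and asp-4 (0.948), and for hizr-1 they were ptp-1 (0.918), sdz-28 (0.892) and Y71H2B.11 (0.888). These are the highest values among all other tested genes, over 12 libraries that share their group means, and serve as a description only.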

How the data were processed

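The deposited table gave raw counts and FPKM values for 24238 genes in 12 libraries, per the file headers. Reads had been trimmed with cutadapt 1.9, checked with FastQC, aligned with HISAT2 2.2.1 and quantified with StringTie, per the submitters' processing notes; for the counting tool, its use of strand and the genome build, the sources used here name nothing. Of the gene identifiers, 24232 matched RefSeq's WBcel235 genes, 97.0% of them with the same start and 95.9% with the same end, and the table's coordinates are given as WBcel235. Transcripts and overlaps came from the Ensembl annotation of that build.

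Testing covered the 11535 genes whose FPKM averaged 1 or more over all libraries. The model was edgeR's two-sided quasi-likelihood F test on counts with TMM scaling, robust dispersions and treatment as the only term, adjusted by Benjamini-Hochberg over all tested genes with a threshold of 0.05. The SE is the log2 change divided by the square root of F. The script was tested on simulated data. R 4.3.3, edgeR 4.0.16, limma 3.58.1 and DESeq2 1.42.0 were used. Log2 CPM values used the TMM scaling and a prior count of 0.5. Within-group pairs of libraries differed by a chi-square per degree of freedom of 18.2 to 231, and each library was counted as 1 replicate. Such values cannot tell separate cultures from separate preparations of the same culture.

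The members and lists were chosen with earlier results of these data known. Named genes were the 8 members, mtl-1, mtl-2, mdt-15 and elt-2, up to 4 called genes with the smallest p of each other list, 2 of each marker list whose values are given, and the 3 genes most like a member. Marker lists of the epidermis, body wall muscle, neurons and pharynx were also fixed. Of their tested genes 7 of 11, 11 of 12, 4 of 10 and 8 of 10 rose, and 1 epidermal gene fell. Over all tested genes 23.7% rose and 16% fell. The part of these tissues in the changes of the zinc genes was not tested. Alternatives changed the filter, the scaling, the test, the pseudocount and the libraries, and added a replicate block.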

Additional observations from a re-analysis of the deposited data

Results flagged for a closer look

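In 3 of the 16 groups of 6 values tested, 1 library lay far from the others by Dixon's criterion, and each time it was TM replicate 5. Chance flags about 1 in 20 groups. The level of sur-7 was 9.46 FPKM there, against 13.9 to 14.5 FPKM in the other TM libraries. The level of zipt-2.1 was 7.27 FPKM there, against 11.2 to 13.3 FPKM in the others. The level of cdf-1 was 9.88 FPKM there, against 11.9 to 13.1 FPKM in the others. The same library was within the range of the other TM libraries for cdf-2 and zipt-2.3, and it was the highest TM library for ttm-1 and zipt-7.1. It also had the highest summed sperm marker level, 1123 FPKM, against 609 to 853 FPKM in the other TM libraries. The part of that difference in the low values was not tested.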

How the results depend on the processing

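Under all 22 alternatives cdf-1, cdf-2, zipt-2.3 and zipt-7.1 kept their direction and passed, with adjusted p up to 0.0477 for cdf-1, 0.00626 for cdf-2, 0.00153 for zipt-2.3 and 0.0215 for zipt-7.1. The log2 change of cdf-2 was 0.41 with limma on log2(FPKM + 1) after quantile normalization and 0.85 on the same scale without it, and that of zipt-2.3 was -1.39 and -0.98. The log2 change of ttm-1 kept its direction but did not pass with no filter on low values (0.19), with edgeR's filterByExpr (0.16), with quantile normalization (0.11) or with the replicate block (0.21), and it was 0.16 to 0.24 when single libraries were left out. The gene sur-7 passed with filterByExpr (-0.27), DESeq2 (-0.25) and quantile normalization (-0.32), and ranged from -0.26 to -0.15 without single libraries. The log2 change of zipt-2.1 was -0.0076 with quantile normalization, 0.14 to 0.28 without single libraries, and 0.29 and past the threshold without DMSO replicates 2 and 6 and TM replicate 5. That of hizr-1 was -0.42 with quantile normalization (adjusted p = 0.0117, in a range up to 0.954), and -0.041, without TM replicate 6, to 0.18 without single libraries. The number of members that rose was 1 with no filter, with filterByExpr, with quantile normalization and with the replicate block, and 1 to 3 without single libraries. The number that fell was 5 with quantile normalization. Of all tested genes, 1851 fell, 1517 to 2394 without single libraries, against 2945 with quantile normalization and 2832 without DMSO replicates 2 and 6 and TM replicate 5. Of all calls 59.7% were higher, against 39.6% with quantile normalization. The cause of these differences was not tested.

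The replicate numbers share no stated origin. Same-numbered libraries of the groups correlated between -0.34 and 0.23 in their deviations from the group means, and 1 of 6 TM libraries correlated best with its own number. With the replicate block 3633 genes passed, against 4590, and the call of ttm-1 was lost among members, as were those of mtl-2, F56C9.3, apm-3 and snap-29. The low counts of hizr-1, cdf-2, zipt-2.3, mtl-1 and mtl-2 limit what could be seen for them.

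Among other genes named, quantile normalization ended the calls of K07G5.5, zipt-2.2, mtl-2, glo-3, snap-29 and spe-6, and filterByExpr that of zipt-15. The call of apm-3 was also lost with total counts only, with limma at either pseudocount and without DMSO replicates 2 and 6 and TM replicate 5.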
